A study of Mus musculus with 18 samples.

Results

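The somite genes Pax1, Pax9, Nkx3-2, Meox1, Meox2, Tcf15, Pax3, Myf5, Myog and Scx were followed in RNA-seq libraries of mouse embryos whose heads had been removed. They are 10 of the 55138 genes in the FPKM table and were taken by name, because they mark the parts into which a somite divides. The series holds 18 libraries in 6 groups of 3. At E10.5 (embryonic day as labelled) the groups are Del(i9-13), Del(i9-13):Hoxb13hd, Hoxb13hd and wild-type. At E9.5 they are Del(i9-13) and wild-type. Del(i9-13) is a deletion in the HoxB cluster, and by the series title the study concerns CTCF-dependent insulation of Hoxb13 and tail length. The Hoxb13hd allele is carried alone or together with that deletion (what "hd" changes in the gene: not given in the sources used here). All mutants are homozygous, and the wild-type embryos are littermates of mutants. A replicate may be 1 embryo or a pool, which the labels leave unsaid, so p-values measure only the spread between these libraries. No Cre or transgene is named, nor is a strain.

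Somites are the segmented blocks of mesoderm beside the neural tube. The ventral part becomes the sclerotome, the source of vertebrae and ribs, under Shh from the notochord and floor plate. The dorsal part stays epithelial as the dermomyotome, the source of dermis and of muscle progenitors, and its edges feed the myotome, where the first skeletal muscle forms. The syndetome, the tendon progenitor compartment, arises next to the myotome. Pax1 and Pax9 are paired-box factors of the sclerotome, and Nkx3-2 (Bapx1) is a homeobox factor that acts downstream of them. Meox1 and Meox2 are homeobox factors of the whole somite, and Tcf15 (Paraxis) is the bHLH factor needed for the somite to become epithelial. Pax3 marks the dermomyotome and also the dorsal neural tube. Myf5 is the first myogenic bHLH factor to appear, Myog (myogenin) drives the terminal step of muscle differentiation, and Scx (Scleraxis) is a bHLH factor of tendon progenitors.

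DNA just before the start sites of both myogenic members is shown, with that of Acta1 and Mylpf, muscle genes that passed a test in the Hoxb13hd embryos. Neither myogenic member passed the main test between genotypes. RefSeq promoter records (GRCm38.p6) gave 235 bases each, ending 16 bases before the RefSeq start; 6 of the 10 members had a record. Capitals mark the letters of CANNTG, the E-box core bound by myogenic bHLH factors, and of CTANNNNTA, a wider form of the core bound by Mef2 factors, both searched on each strand.
Myog, chr1:134289754-134289988, plus strand: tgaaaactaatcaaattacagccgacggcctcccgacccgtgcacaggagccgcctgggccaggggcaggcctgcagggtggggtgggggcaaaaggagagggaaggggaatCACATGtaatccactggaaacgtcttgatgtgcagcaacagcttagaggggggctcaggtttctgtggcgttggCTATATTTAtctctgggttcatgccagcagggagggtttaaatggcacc
Myf5, chr10:107486150-107486384, minus strand: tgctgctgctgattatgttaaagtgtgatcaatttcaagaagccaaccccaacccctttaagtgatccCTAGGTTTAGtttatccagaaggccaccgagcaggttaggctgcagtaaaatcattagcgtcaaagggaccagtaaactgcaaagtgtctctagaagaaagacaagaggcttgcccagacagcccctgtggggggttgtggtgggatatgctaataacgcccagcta
Acta1, chr8:123894791-123895025, minus strand: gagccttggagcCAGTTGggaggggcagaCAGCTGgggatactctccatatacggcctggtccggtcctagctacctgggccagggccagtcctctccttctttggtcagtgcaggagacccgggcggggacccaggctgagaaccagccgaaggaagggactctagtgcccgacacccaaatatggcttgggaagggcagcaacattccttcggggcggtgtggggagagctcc
Mylpf, chr7:127211358-127211592, plus strand: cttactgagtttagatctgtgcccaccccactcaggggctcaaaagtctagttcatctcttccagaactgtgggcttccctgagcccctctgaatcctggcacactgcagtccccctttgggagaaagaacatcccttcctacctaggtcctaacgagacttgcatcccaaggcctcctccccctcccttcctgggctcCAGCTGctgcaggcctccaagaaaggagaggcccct
In this window Myog held 1 CANNTG and 1 CTANNNNTA. Myf5 held 0 CANNTG and 2 overlapping CTANNNNTA, one on each strand. Acta1 held 2 CANNTG, and Mylpf held 1. Of all 32851 promoter records cut to the same window, 64.1% held at least 1 CANNTG, 29.5% held at least 2, and 18.2% held at least 1 CTANNNNTA. Windows with both motifs, as in Myog, made up 12.1%. These are matches of letters and no evidence of binding.

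Library totals were 19333138 to 35934843 counts. RNA was selected by poly(A) tail at E9.5 and by ribosomal RNA depletion at E10.5, so stage and library type cannot be told apart. Hoxb13 checked which libraries carry the deletion: it had 1299 to 1421 counts in E9.5 Del(i9-13) libraries against 1 to 4 in E9.5 wild-type libraries. At E10.5 it had 130 to 288 counts in Del(i9-13), 228 to 307 in Del(i9-13):Hoxb13hd, 0 to 2 in Hoxb13hd and 1 to 25 in wild-type libraries, which overlap, so the Hoxb13hd label was not checked by these counts. Head removal was checked with the forebrain genes Six3 and Otx2, which stayed at or below 0.0621 FPKM in every library. Heart muscle RNA varied among replicates: the summed level of 9 heart markers in the Hoxb13hd libraries was 71.4, 5.53 and 7.46 FPKM, against 12.7, 72.9 and 292 FPKM in E10.5 wild-type libraries. The 9 sums were 8.04 to 9.06 FPKM in E9.5 Del(i9-13) and 7.80 to 32.8 FPKM in E9.5 wild-type libraries, 9.64 to 70.9 FPKM in E10.5 Del(i9-13) and 15.01 to 34.8 FPKM in Del(i9-13):Hoxb13hd libraries. At most 2 of the 9 markers were at 0 in a library. Its part in the results below was not tested.

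Levels are given in FPKM, which are per transcript length, so that genes can be set beside each other. Meox1 was the highest of the 10 genes in all 6 groups, at 34.1 ± 3.93 FPKM in E10.5 wild-type embryos and 69.9 ± 3.95 FPKM in E9.5 wild-type embryos (SD, n = 3 each). Its relative Meox2 stood at 7.38 ± 0.217 FPKM in E10.5 wild-type embryos (SD, n = 3). Among the sclerotome genes at E10.5, wild-type embryos held 3.06 ± 0.499 FPKM of Pax1 and 1.41 ± 0.113 FPKM of Nkx3-2 (SD, n = 3 each). Scx or Nkx3-2 was the lowest member in every group. Scx was counted 12 to 74 times per library and Nkx3-2 41 to 132 times, whereas Meox1 was counted 2098 to 6931 times, so the counting error is largest for the lowest pair. The plot of levels per library shows the 10 genes side by side.

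**Figure D1:**
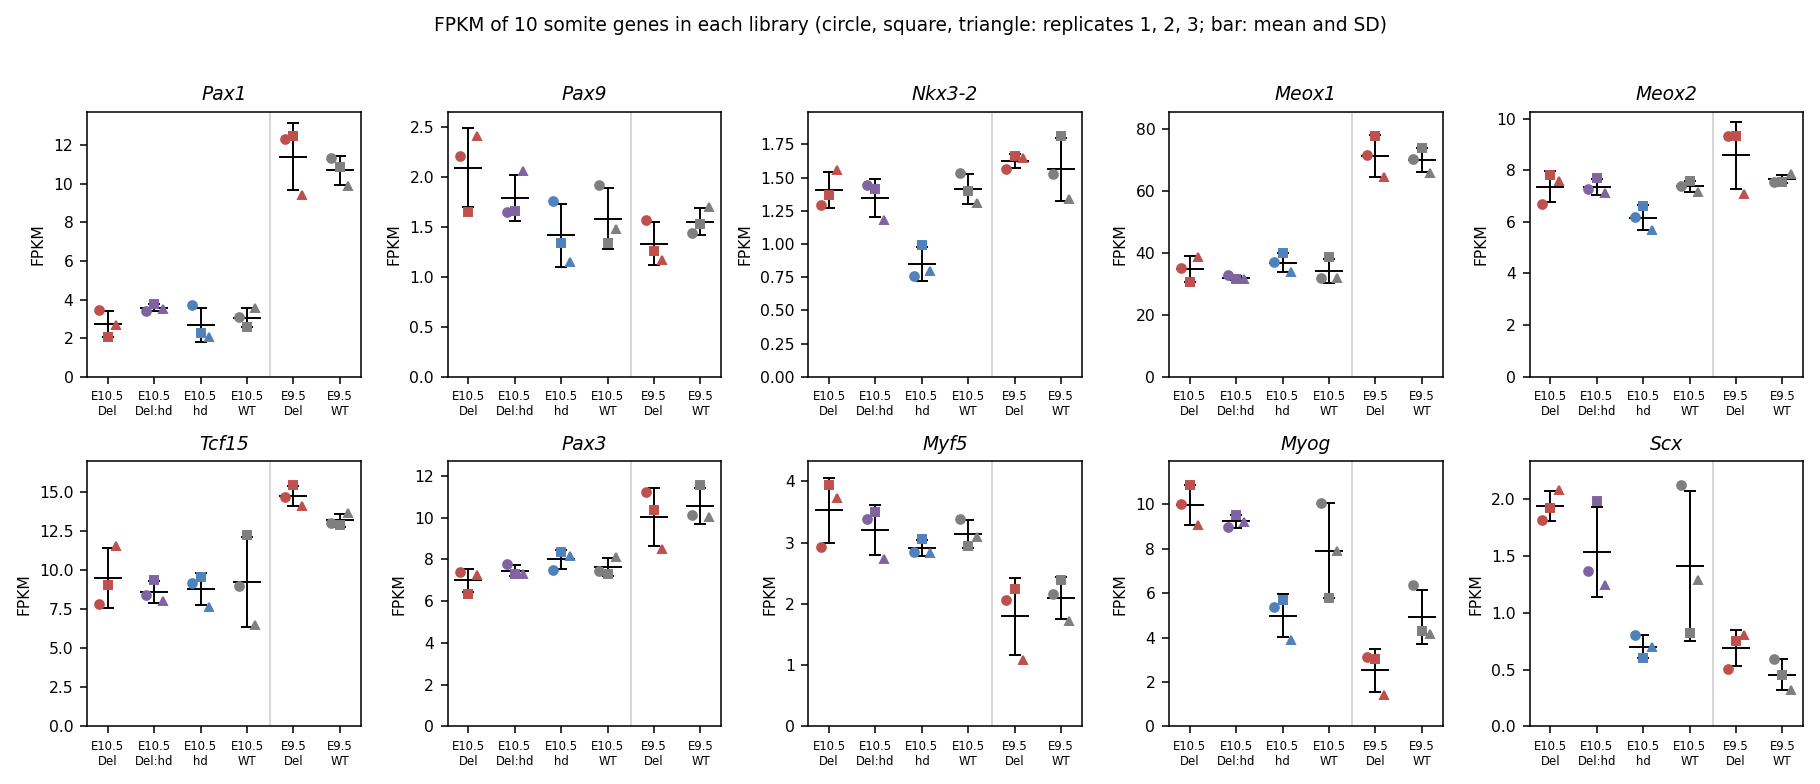
Level of each of the 10 genes in FPKM (vertical axes, 1 panel a gene, each from 0) in every library, by group; points are libraries, and bars the mean and SD of 3. Del is Del(i9-13), hd is Hoxb13hd, Del:hd carries both and WT is wild-type. Pax1 and Meox1 stand apart by stage, Nkx3-2 and Scx are low in the Hoxb13hd group at E10.5, and Myog spreads widely.

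The first question was what the Hoxb13hd allele alone did to these genes at E10.5. Of the 10 members, 1 passed the test against wild-type, and it fell: Nkx3-2. Scx and Myog had the largest other fold changes, both negative, and missed the threshold. The test was edgeR's quasi-likelihood test on counts, fitted to all 12 E10.5 libraries, with Benjamini-Hochberg adjustment over 17202 genes and a threshold of 0.05. Over all genes the same comparison called 3.01%, and 1.59% as lower. In bulk tissue, fewer cells of a type and less RNA per cell cannot be told apart, here and in every comparison below.

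Nkx3-2 (ENSMUSG00000049691, chromosome 5, 41761483 to 41764501, mm10) had 0.756, 0.991 and 0.797 FPKM in Hoxb13hd embryos, against 1.53, 1.40 and 1.31 FPKM in wild-type embryos. All Hoxb13hd libraries lie below all wild-type libraries. Its log2 fold change was −0.72 ± 0.17 (SE, edgeR adjusted p = 0.039). The Hoxb13hd group was also the lowest of the 6 groups for this gene, with no overlap with the next. The call was narrow: leaving out any 1 of the 6 libraries of these groups ended it, with edgeR adjusted p-values of 0.0686 to 0.153 and log2 fold changes of −0.82 to −0.65. Pax1 and Pax9, the other sclerotome members, had log2 fold changes of −0.12 ± 0.21 and −0.11 ± 0.17 (SE), with edgeR adjusted p-values of 0.806 and 0.782, and their groups overlapped.

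Scx (ENSMUSG00000034161, chromosome 15, 76457520 to 76459449, mm10) had 0.804, 0.601 and 0.696 FPKM in Hoxb13hd embryos, against 2.12, 0.821 and 1.29 FPKM in wild-type embryos. The groups did not overlap, although wild-type replicate 2 came close to the highest Hoxb13hd library. Its log2 fold change was −1.07 ± 0.28 (SE, edgeR adjusted p = 0.0593). Without wild-type replicate 2 it was −1.29, with an edgeR adjusted p of 0.0265. With limma on log2(FPKM + 1), where the pseudocount exceeds the Hoxb13hd levels, it was −0.47 (adjusted p = 0.135).

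Myog (ENSMUSG00000026459, chromosome 1, 134289989 to 134292548, mm10) had 5.37, 5.69 and 3.88 FPKM in Hoxb13hd embryos, against 10.1, 5.77 and 7.91 FPKM in wild-type embryos. Again no library overlapped, and again wild-type replicate 2 stood next to the Hoxb13hd libraries. The log2 fold change was −0.57 ± 0.17 (SE, edgeR adjusted p = 0.0886), and without wild-type replicate 2 it was −0.75 (edgeR adjusted p = 0.0248). Myf5, which acts upstream of Myog in the muscle program, had 2.84, 3.06 and 2.84 FPKM in Hoxb13hd embryos against 3.39, 2.94 and 3.10 FPKM in wild-type embryos. Those groups overlapped, with a log2 fold change of −0.05 ± 0.14 (SE, edgeR adjusted p = 0.869). The ratio of Myog to Myf5 was 1.70 ± 0.292 in Hoxb13hd embryos and 2.49 ± 0.508 in wild-type embryos (SD, n = 3 each).

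Meox2 also lay lower without overlap, at 6.19, 6.63 and 5.68 FPKM in Hoxb13hd embryos against 7.39, 7.59 and 7.16 FPKM in wild-type embryos. Its log2 fold change was small, −0.20 ± 0.09 (SE), and did not pass (edgeR adjusted p = 0.214). That makes 4 members whose Hoxb13hd libraries all lay below the wild-type libraries, Nkx3-2, Scx, Myog and Meox2; among all genes tested, 14.9% did so. The remaining members Meox1, Tcf15 and Pax3 had log2 fold changes of 0.16 ± 0.10, −0.01 ± 0.20 and 0.14 ± 0.09 (SE), none past the threshold. Over the 10 members the median log2 fold change was −0.12, with 8 negative, beside a median of 0.00 over all genes. With DESeq2, 3 members passed: Nkx3-2, Myog and Scx.

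**Figure D2:**
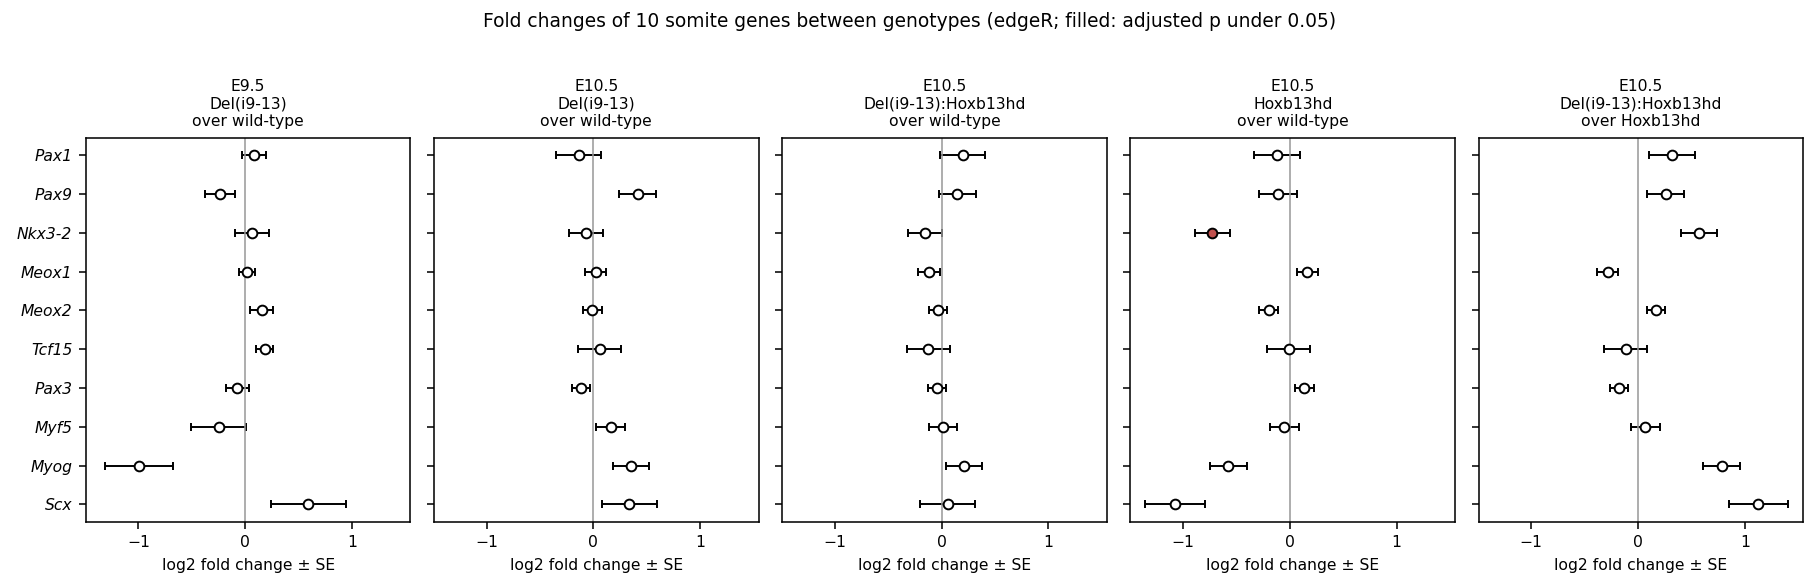
Log2 fold change of each of the 10 genes (horizontal axis; points with bars of 1 SE, edgeR) in 5 genotype comparisons, 1 panel each; 0 means no difference and filled points passed the test. In the Hoxb13hd against wild-type panel Nkx3-2, Scx and Myog lie left of 0, and in the Del(i9-13):Hoxb13hd against Hoxb13hd panel the same 3 genes lie right of 0.

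Lists of other genes known for the same compartments were counted in the same fit. They were chosen with earlier results of these data known, so a list's direction is a description. Of 14 myotome genes, 13 had negative fold changes in Hoxb13hd embryos relative to wild-type, with a median of −0.83, and 3 fell: Acta1 (skeletal alpha-actin), Myl1 and Mylpf (fast muscle myosin light chains). Mylpf had 8.02, 5.63 and 8.64 FPKM in Hoxb13hd embryos, against 16.1, 11.2 and 15.3 FPKM in wild-type embryos, a log2 fold change of −0.89 ± 0.19 (SE, edgeR adjusted p = 0.0272). Every Hoxb13hd library was below every wild-type library. Acta1 had 7.83, 5.82 and 5.50 FPKM in Hoxb13hd embryos, against 11.9, 8.40 and 13.4 FPKM in wild-type embryos, and changed by −0.77 ± 0.18 (log2, SE, edgeR adjusted p = 0.0404). Myl1 had 2.27, 0.734 and 0.905 FPKM in Hoxb13hd embryos, against 3.82, 3.44 and 3.93 FPKM in wild-type embryos, and changed by −1.40 ± 0.29 (log2, SE, edgeR adjusted p = 0.0275). Neither gene's groups overlapped. Hoxb13hd replicate 1, which holds the most heart RNA of its group, was the highest of its group for Acta1 and Myl1. Among wild-type libraries replicate 3, with the most heart RNA, was also highest for both. Wild-type replicate 1 held less heart RNA than replicate 2 (12.7 against 72.9 FPKM). Yet it had more Acta1 (11.9 against 8.40 FPKM) and more Myl1 (3.82 against 3.44 FPKM). The part of heart RNA in these values was not tested. Some genes of the list, such as Actc1, Myl4, Des and Acta1, are also expressed in embryonic heart. The 9 heart markers themselves had a median log2 fold change of −1.81 between these groups, all 9 negative, 0 called by edgeR and 2 with an unadjusted p under 0.05. Without wild-type replicate 3, the library richest in heart RNA, Mylpf was at −0.82, Acta1 at −0.61 and Myl1 at −1.29, and none passed (edgeR adjusted p = 0.0931, 0.129 and 0.0931). Leaving out wild-type replicate 1, Hoxb13hd replicate 2 or Hoxb13hd replicate 3 also ended all 3 calls, with edgeR adjusted p-values of 0.059 to 0.159.

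The sclerotome, dermomyotome and syndetome lists held no called gene in Hoxb13hd embryos. Of 12 dermomyotome genes, 0 were called by edgeR and 6 had an unadjusted p under 0.05, beside 20.4% of all genes; 9 had negative fold changes and the median was −0.16. The smallest p-values belonged to Eya1, a transcriptional cofactor (log2 fold change −0.30, edgeR adjusted p = 0.0872), and Dmrt2, a dermomyotome DM-domain factor (0.40, edgeR adjusted p = 0.122). Of 12 sclerotome genes, 0 were called by edgeR and 2 had an unadjusted p under 0.05, with 6 fold changes on each side of 0 and a median of −0.03. Tbx18, a factor of the anterior somite, had a log2 fold change of −0.71 and an edgeR adjusted p of 0.0825. Of the 4 syndetome genes tested, 0 were called by edgeR and 3 had an unadjusted p under 0.05. The list was positive in 3 of 4 genes, with a median of 0.24, unlike the negative fold change of Scx. Mkx (Mohawk), a tendon homeobox factor and the negative one, had a log2 fold change of −0.45 (edgeR adjusted p = 0.16), and Etv4, an Fgf response factor, had 0.26 (edgeR adjusted p = 0.178). Among 10 patterning signals 1 rose: Wnt3a, a Wnt ligand of the dorsal neural tube and tail bud. It had 1.86, 2.75 and 3.25 FPKM in Hoxb13hd embryos, against 1.52, 1.77 and 0.945 FPKM in wild-type embryos. The groups did not overlap, and the log2 fold change was 0.95 ± 0.24 (SE, edgeR adjusted p = 0.049). It missed the threshold without wild-type replicate 1 or 3 or Hoxb13hd replicate 2 or 3, at edgeR adjusted p-values of 0.129 to 0.168.

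In lists of cell types next to the somites, 3 genes passed in this comparison. The limb bud gene Shox2, a homeobox factor of the proximal limb, had 2.45, 1.90 and 2.54 FPKM in Hoxb13hd embryos, against 8.38, 3.36 and 6.62 FPKM in wild-type embryos, a log2 fold change of −1.23 ± 0.22 (SE, edgeR adjusted p = 0.0169). Summed over the 8 limb bud genes, the level was 47.7 to 48.1 FPKM in Hoxb13hd embryos and 47.1 to 62.2 FPKM in wild-type embryos, so the sums overlapped. Eya4, from the pharyngeal list, fell by 0.78 ± 0.13 on the log2 scale (SE, edgeR adjusted p = 0.0118). Msx1, a homeobox factor of dorsal neural tube and neural crest, rose by 0.61 ± 0.12 (log2, SE, edgeR adjusted p = 0.0201). Shox2 and Msx1 missed the threshold without wild-type replicate 1 or 3 or Hoxb13hd replicate 2 or 3 (edgeR adjusted p = 0.0599 to 0.0965), and Eya4 without wild-type replicate 1 or Hoxb13hd replicate 2 or 3 (0.0528 to 0.0723). Nkx3-2 and Scx are also expressed in limb and branchial tissue in the mouse, and whether the limb values bear on them was not tested.

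The next question was what the deletion did in embryos that also carry Hoxb13hd, comparing Del(i9-13):Hoxb13hd with Hoxb13hd. This comparison shares the Hoxb13hd libraries with the last, so opposite signs in the pair are not independent. Of the 10 members 0 were called by edgeR, 4 had an unadjusted p under 0.05, and DESeq2 called 2, Myog and Scx; limma on log2(FPKM + 0.1) called 1, Myog. Over all genes edgeR called 0.959%, and 15.2% had an unadjusted p under 0.05. Myog had 8.97, 9.54 and 9.21 FPKM in Del(i9-13):Hoxb13hd embryos, against 5.37, 5.69 and 3.88 FPKM in Hoxb13hd embryos. The groups were well apart and the double mutant libraries lay within 1 FPKM of each other. The log2 fold change was 0.78 ± 0.17 (SE, edgeR adjusted p = 0.0534). Scx had 1.37, 1.98 and 1.24 FPKM in Del(i9-13):Hoxb13hd embryos, against 0.804, 0.601 and 0.696 FPKM in Hoxb13hd embryos. No library overlapped, with a log2 fold change of 1.13 ± 0.28 (SE, edgeR adjusted p = 0.0719). Nkx3-2 had 1.45, 1.41 and 1.18 FPKM in Del(i9-13):Hoxb13hd embryos against the Hoxb13hd values above, a log2 fold change of 0.57 ± 0.17 (SE, edgeR adjusted p = 0.113). Meox2 was at 0.17 ± 0.09 and Meox1 at −0.28 ± 0.10 (log2, SE), with edgeR adjusted p-values of 0.387 and 0.192. So Myog, Scx, Nkx3-2 and Meox2 lay higher in all double mutant libraries and Meox1 lower; over all genes 19.3% lay higher and 5.1% lower in that way. The ratio of Meox1 to Meox2 was 4.34 ± 0.220 in Del(i9-13):Hoxb13hd embryos and 5.97 ± 0.0376 in Hoxb13hd embryos (SD, n = 3 each). The other 5 members had log2 fold changes of −0.18 (Pax3) to 0.32 (Pax1). The median over the 10 members was 0.21, beside −0.01 over all genes.

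In the same comparison 12 of 14 myotome genes had positive fold changes with a median of 0.57, and 1 rose, Mylpf. It had 15.3, 16.7 and 14.6 FPKM in Del(i9-13):Hoxb13hd embryos against 8.02, 5.63 and 8.64 FPKM in Hoxb13hd embryos, a log2 fold change of 0.97 ± 0.19 (SE, edgeR adjusted p = 0.0339). Myod1, the other early myogenic bHLH factor, had a log2 fold change of 1.68 ± 0.48 (SE, edgeR adjusted p = 0.105) on 9, 3 and 1 counts in the Hoxb13hd libraries. Of 12 dermomyotome genes 10 were positive and 1 rose: Eya2, a relative of Eya1, by 0.63 ± 0.12 (log2, SE, edgeR adjusted p = 0.0359). Leaving out any 1 Del(i9-13):Hoxb13hd library, or Hoxb13hd replicate 2 or 3, ended the calls of Mylpf and Eya2, with edgeR adjusted p-values of 0.0621 to 0.158. Of 12 sclerotome genes 0 were called by edgeR and 3 had an unadjusted p under 0.05; 7 were positive and 5 negative, with a median of 0.03. Sox9, a cartilage factor, had a log2 fold change of 0.45 (edgeR adjusted p = 0.176). Shox2 rose by 1.58 ± 0.22 (log2, SE, edgeR adjusted p = 0.00907), and passed in all 15 alternatives. Of the 8 limb bud genes 7 were positive, and their summed level was 64.7 to 69.1 FPKM in Del(i9-13):Hoxb13hd embryos and 47.7 to 48.1 FPKM in Hoxb13hd embryos, without overlap. The part of limb tissue in the values of Nkx3-2 and Scx was not tested here either. Summed heart markers were 21.3, 15.01 and 34.8 FPKM in Del(i9-13):Hoxb13hd embryos, against 71.4, 5.53 and 7.46 FPKM in Hoxb13hd embryos. These sums overlap, and the part of heart RNA in the Myog and myotome values was not tested.

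**Figure D3:**
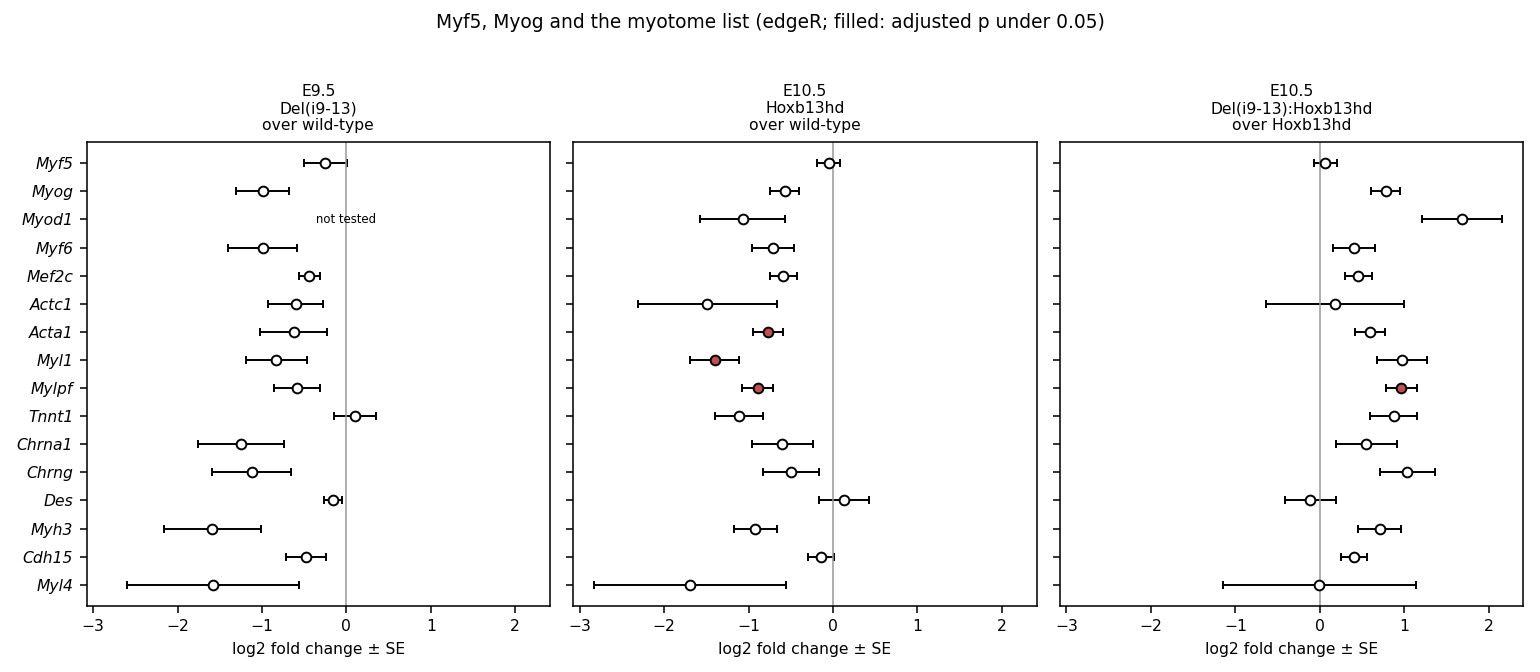
Log2 fold change (horizontal axis; points with bars of 1 SE, edgeR) of Myf5, Myog and the 14 myotome genes in 3 comparisons, 1 panel each; filled points passed the test. In Hoxb13hd against wild-type 13 of the 14 listed genes lie left of 0, in Del(i9-13):Hoxb13hd against Hoxb13hd 12 of 14 lie right of 0, and in E9.5 Del(i9-13) against wild-type 12 of the 13 tested lie left of 0.

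The double mutant was then set against wild-type and against Del(i9-13). In Del(i9-13):Hoxb13hd against wild-type, 0 of 10 members were called by edgeR, 0 had an unadjusted p under 0.05, and 0 passed with DESeq2 or limma; over all genes edgeR called 0.401%, and 12.5% had an unadjusted p under 0.05. The log2 fold changes were −0.15 (Nkx3-2) to 0.21 ± 0.17 (Myog, SE), and all 10 genes overlapped between groups, while 21.1% of all genes did not. Against Del(i9-13), the double mutant had 0 members called by edgeR, 0 with an unadjusted p under 0.05, and log2 fold changes of −0.28 (Scx) to 0.33 (Pax1), with all 10 overlapping; DESeq2 and limma called 0 members as well. Of all genes edgeR called 0.907%, 16.1% had an unadjusted p under 0.05, and 20.1% did not overlap. Pax1 had 3.42, 3.78 and 3.53 FPKM in Del(i9-13):Hoxb13hd embryos, against 3.44, 2.08 and 2.68 FPKM in Del(i9-13) embryos. Double mutant libraries were closer together than those of either single mutant for this gene.

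For Del(i9-13) against wild-type at E10.5, 0 of 10 members were called by edgeR, 1 had an unadjusted p under 0.05, and 0 passed with DESeq2 or limma; edgeR called 0.488% of all genes, and 9.13% had an unadjusted p under 0.05. Pax9 had 2.21, 1.65 and 2.41 FPKM in Del(i9-13) embryos against 1.92, 1.34 and 1.48 FPKM in wild-type embryos. The groups overlapped, with a log2 fold change of 0.41 ± 0.17 (SE, edgeR adjusted p = 0.478). The ratio of Pax1 to Pax9 was 1.31 ± 0.226 in Del(i9-13) embryos and 1.96 ± 0.400 in wild-type embryos (SD, n = 3 each). Myog had 10.02, 10.9 and 9.07 FPKM in Del(i9-13) embryos, against 10.1, 5.77 and 7.91 FPKM in wild-type embryos, a log2 fold change of 0.35 ± 0.17 (SE, edgeR adjusted p = 0.567). Scx had 1.82, 1.92 and 2.08 FPKM in Del(i9-13) embryos, against 2.12, 0.821 and 1.29 FPKM in wild-type embryos, a log2 fold change of 0.34 ± 0.26 (SE, edgeR adjusted p = 0.755). In both genes wild-type replicate 1 reached the Del(i9-13) range and wild-type replicate 2 lay lowest. The other members had log2 fold changes of −0.14 (Pax1) to 0.16 (Myf5). Among the 14 myotome genes 10 were positive with a median of 0.08, 0 called by edgeR and 1 with an unadjusted p under 0.05.

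Taking both deletion genotypes against both without the deletion, 0 of 10 members were called by edgeR, 5 had an unadjusted p under 0.05, and DESeq2 called 2, Myog and Scx, and limma 0; edgeR called 0.5% of all genes, and 13.6% had an unadjusted p under 0.05. The log2 fold changes were 0.57 ± 0.12 for Myog (SE, edgeR adjusted p = 0.0655) and 0.73 ± 0.19 for Scx (SE, edgeR adjusted p = 0.123). Pax9 had 0.34 ± 0.12 and Pax3 −0.15 ± 0.06 (SE, edgeR adjusted p = 0.247 and 0.307). A difference in the deletion's effect between embryos with and lacking Hoxb13hd was asked with an interaction term, the deletion's effect in Hoxb13hd embryos minus its effect in embryos without that allele. It was called for 0 of 10 members by edgeR, 0 by DESeq2 and 0 by limma, with 2 at an unadjusted p under 0.05, and of all genes edgeR called 0.523% and 11.7% had an unadjusted p under 0.05. Its largest values were 0.79 ± 0.38 for Scx, 0.64 ± 0.23 for Nkx3-2, 0.46 ± 0.30 for Pax1 and 0.43 ± 0.24 for Myog (log2, SE), with edgeR adjusted p-values of 0.44, 0.30, 0.568 and 0.507.

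At E9.5 the deletion was compared with wild-type in the poly(A)-enriched libraries. Of the 10 members 0 were called by edgeR, 2 had an unadjusted p under 0.05, and 1, Myog, passed with DESeq2 (adjusted p = 0.0235); limma called 0. Over all genes edgeR called 0.362%, and 11.7% had an unadjusted p under 0.05. Myog had 3.12, 3.05 and 1.42 FPKM in Del(i9-13) embryos, against 6.35, 4.32 and 4.18 FPKM in wild-type embryos. Every Del(i9-13) library lay below every wild-type library, and replicate 3 lay lowest. The log2 fold change was −0.99 ± 0.32 (SE, edgeR adjusted p = 0.326). Myf5 had 2.07, 2.24 and 1.08 FPKM in Del(i9-13) embryos, against 2.17, 2.40 and 1.72 FPKM in wild-type embryos, a log2 fold change of −0.25 ± 0.26 (SE, edgeR adjusted p = 0.741). The ratio of Myog to Myf5 was 1.39 ± 0.102 in Del(i9-13) embryos and 2.38 ± 0.564 in wild-type embryos (SD, n = 3 each). The other gene whose groups did not overlap was Tcf15, at 14.7, 15.4 and 14.1 FPKM in Del(i9-13) embryos against 13.0, 12.9 and 13.7 FPKM in wild-type embryos. It lay higher with the deletion, by 0.18 ± 0.08 (log2, SE, edgeR adjusted p = 0.42). Groups lay apart in this way for 17.3% of all genes tested. Meox1 and Nkx3-2 had log2 fold changes of 0.02 ± 0.07 and 0.06 ± 0.16 (SE). In the myotome list 12 of 13 tested genes were negative, with a median of −0.63, 0 called by edgeR and 6 with an unadjusted p under 0.05. Mef2c, a muscle MADS-box factor, had −0.44 ± 0.12 (SE, edgeR adjusted p = 0.233) and Chrna1, an acetylcholine receptor subunit, −1.25 ± 0.51 (SE, edgeR adjusted p = 0.407). All 12 dermomyotome genes were negative with a median of −0.10, 0 called by edgeR and 1 with an unadjusted p under 0.05, and En1, a homeobox factor, was at −0.98 (edgeR adjusted p = 0.286). Genes of other cell types were negative too: 7 of 7 heart markers tested, with a median of −0.74, and 8 of 8 limb bud genes, with a median of −0.17. The summed limb bud level was 45.6 to 49.1 FPKM in Del(i9-13) embryos and 53.0 to 57.4 FPKM in wild-type embryos, without overlap, while the heart sums overlapped. Their part in the values of Myog and the muscle list was not tested.

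The deletion's sign differed by stage for Myog, and also for Pax1, Pax9, Nkx3-2, Meox2 and Myf5. For Myog the log2 fold change was 0.35 at E10.5 and −0.99 at E9.5. Neither value passed at its own stage (edgeR adjusted p = 0.567 and 0.326). A fit of the 12 libraries of both genotypes put the difference, E10.5 minus E9.5, at 1.36 ± 0.40 (SE, edgeR adjusted p = 0.441), past the threshold for neither Myog nor any other member. With edgeR, DESeq2 and limma 0 of 10 members were called, and 2, Myog and Pax9, had an unadjusted p under 0.05. The difference for Pax9 was 0.67 ± 0.23 (log2, SE, edgeR adjusted p = 0.535). Of all genes 0.0453% were called and 6.86% had an unadjusted p under 0.05.

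Between the stages, wild-type E10.5 embryos were compared with wild-type E9.5 embryos; library type changes with stage. Of the 10 members 6 passed with edgeR: Myf5, Myog and Scx rose, and Pax1, Meox1 and Pax3 fell. Over all genes this comparison called 52.8%, with 27.8% higher and 25% lower, so 6 of 10 is near the background. DESeq2 called the same 6 members, and limma on log2(FPKM + 0.1) called 6 with Tcf15 in place of Myog. The libraries of the stages lay apart for 6 members, Pax1, Meox1, Tcf15, Pax3, Myf5 and Scx, and for 61.9% of all genes. Pax1 (ENSMUSG00000037034, chromosome 2, 147361925 to 147375053, mm10) had 3.07, 2.55 and 3.55 FPKM at E10.5, against 11.4, 10.9 and 9.86 FPKM at E9.5. The stages were far apart, with a log2 fold change of −1.66 ± 0.18 (SE, edgeR adjusted p = 8.12e-06). Its relative Pax9 (ENSMUSG00000001497, chromosome 12, 56691767 to 56712822) had 1.92, 1.34 and 1.48 FPKM at E10.5, against 1.44, 1.53 and 1.70 FPKM at E9.5, and the stages overlapped, with a log2 fold change of 0.18 ± 0.16 (SE, edgeR adjusted p = 0.369). The ratio of Pax1 to Pax9 was 1.96 ± 0.400 at E10.5 and 6.94 ± 1.07 at E9.5 (SD, n = 3 each). In the same wild-type embryos the 6 pharyngeal endoderm genes summed to 5.15 to 6.52 FPKM at E10.5. At E9.5 they summed to 9.44 to 11.3 FPKM, without overlap. The list was split between the stages. Of the 4 genes tested with edgeR, 2 rose, Eya4 (log2 fold change 1.13) and Tbx1 (0.94), and 1 fell, Hoxa3 (−1.56). The sum therefore does not stand for all genes of the list. The part of pharyngeal tissue in the Pax1 and Pax9 values was not tested.

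Meox1 (ENSMUSG00000001493, chromosome 11, 101877510 to 101894374, mm10) had 31.8, 38.6 and 31.8 FPKM at E10.5, against 70.1, 73.8 and 65.9 FPKM at E9.5. No library overlapped, and the log2 fold change was −0.90 ± 0.10 (SE, edgeR adjusted p = 1.09e-05). Meox2 (ENSMUSG00000036144, chromosome 12, 37108540 to 37179534) had 7.39, 7.59 and 7.16 FPKM at E10.5, against 7.56, 7.56 and 7.85 FPKM at E9.5, a log2 fold change of 0.10 ± 0.10 (SE, edgeR adjusted p = 0.453). So in each of these paralog pairs 1 gene fell and the other overlapped between stages; the difference within a pair was not tested. Tcf15 (ENSMUSG00000068079, chromosome 2, 152143561 to 152149097) had 8.97, 12.3 and 6.50 FPKM at E10.5, against 13.0, 12.9 and 13.7 FPKM at E9.5. Its stages did not overlap, but the E10.5 libraries spread widely and the fold change of −0.38 ± 0.18 (log2, SE) did not pass (edgeR adjusted p = 0.0988). It passed with limma on log2(FPKM + 0.1) (−0.56, adjusted p = 0.0233) and without E10.5 wild-type replicate 2 (−0.65, edgeR adjusted p = 0.00398).

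Pax3 (ENSMUSG00000004872, chromosome 1, 78101267 to 78197134, mm10) had 7.44, 7.31 and 8.12 FPKM at E10.5, against 10.1, 11.5 and 10.01 FPKM at E9.5. The stages did not overlap, and the log2 fold change was −0.30 ± 0.11 (SE, edgeR adjusted p = 0.0299). It missed the threshold without E9.5 wild-type replicate 2 or E10.5 wild-type replicate 1 or 2, at edgeR adjusted p-values of 0.105 to 0.128. The 9 genes of the neural crest and dorsal neural tube list summed to 63.9 to 68.7 FPKM in E10.5 wild-type embryos. At E9.5 their sums were 78.7 to 88.9 FPKM in wild-type embryos, without overlap. Single genes of this list went both ways. With edgeR 2 rose, Zic1 (log2 fold change 0.79) and Ets1 (0.32). Another 4 fell, Tfap2a (−2.37), Lmx1a (−1.05), Msx1 (−0.74) and Sox10 (−0.68). The part of these tissues in the Pax3 values was not tested. Myf5 (ENSMUSG00000000435, chromosome 10, 107482908 to 107486134, mm10) had 3.39, 2.94 and 3.10 FPKM at E10.5, against 2.17, 2.40 and 1.72 FPKM at E9.5. The stages did not overlap, and the log2 fold change was 0.72 ± 0.22 (SE, edgeR adjusted p = 0.0131); without E9.5 wild-type replicate 3 the edgeR adjusted p was 0.0589. Myog had 10.1, 5.77 and 7.91 FPKM at E10.5, against 6.35, 4.32 and 4.18 FPKM at E9.5. These ranges overlapped, and the log2 fold change was 0.79 ± 0.28 (SE, edgeR adjusted p = 0.0329). It missed the threshold without E9.5 wild-type replicate 2 or 3 or E10.5 wild-type replicate 1 or 3, at edgeR adjusted p-values of 0.0721 to 0.123. Scx had 2.12, 0.821 and 1.29 FPKM at E10.5, against 0.596, 0.453 and 0.318 FPKM at E9.5. Every E10.5 library lay above every E9.5 library, with a log2 fold change of 1.91 ± 0.33 (SE, edgeR adjusted p = 0.000254). Nkx3-2 had a log2 fold change of −0.04 ± 0.15 (SE, edgeR adjusted p = 0.852). The calls of Pax1, Meox1 and Scx held in all 15 alternatives tried for each.

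**Figure D4:**
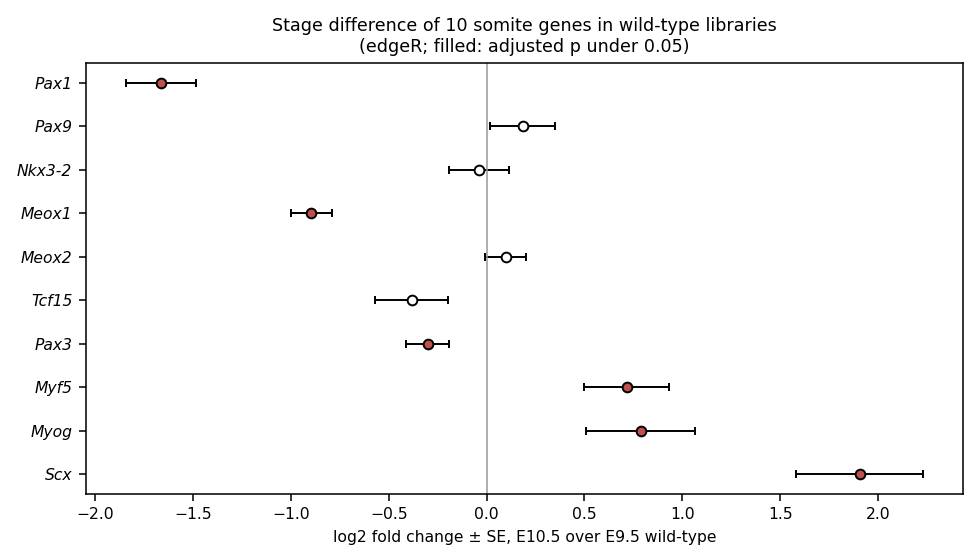
Log2 fold change of each of the 10 genes in wild-type embryos, E10.5 over E9.5 (horizontal axis; points with bars of 1 SE, edgeR; filled points passed the test). Pax1, Meox1 and Pax3 lie left of 0 and Myf5, Myog and Scx right of 0; stage and library type change together.

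The compartment lists were counted between the same stages. Over all genes this comparison called 27.8% higher and 25% lower, and the sclerotome counts below lie near these shares. Of 14 myotome genes 8 rose, all 14 were positive, and the median log2 fold change was 1.41. The myogenic bHLH factors Myod1 and Myf6 rose by 1.44 and 1.38 (log2, edgeR adjusted p = 0.0243 and 0.00313), and Mef2c rose by 1.20 (edgeR adjusted p = 1.73e-06). Myod1 was called in 6 of 12 alternatives, and missed the threshold without any 1 of the E9.5 wild-type libraries or without E10.5 wild-type replicate 3 (edgeR adjusted p = 0.0528 to 0.0872). The contractile genes Acta1, Myl1, Mylpf, Tnnt1 and Myh3 rose by 1.27 to 2.44 (log2). Summed heart markers were 12.7 to 292 FPKM at E10.5 and 7.80 to 32.8 FPKM at E9.5 in wild-type embryos; 4 of the 9 rose and all 9 were positive, and their part in the myotome values was not tested. Of 12 sclerotome genes 4 rose, Tbx18, Foxc1, Sox6 and Pdgfra, and 4 fell, among them Sox9, Foxc2 and Col2a1. Col2a1, the cartilage collagen, fell by 0.64 (log2). Sox6, a cartilage factor, was at 0.33 (edgeR adjusted p = 0.0421) and was called in 4 of 15 alternatives; limma on log2(FPKM + 0.1) gave 0.08 (adjusted p = 0.754), and edgeR without E9.5 wild-type replicate 2 or 3 or any 1 E10.5 wild-type library gave adjusted p-values of 0.0514 to 0.138. Of 12 dermomyotome genes 5 rose and 0 fell: Sim1, En1, Six4, Eya2 and Met, the receptor used by migrating muscle progenitors. Eya2 was at 0.32 (edgeR adjusted p = 0.0377) and was called in 7 of 15 alternatives; it missed the threshold without replicate 1 or 3 of either stage (edgeR adjusted p = 0.0864 to 0.13). Of the 4 syndetome genes tested 2 rose, Mkx by 0.71 and Fgf4, a growth factor of the myotome, by 1.19, and 2 fell, Etv4 by 0.41 and Etv5 by 0.48 (log2). Fgf4 was called in 5 of 12 alternatives. Of 10 patterning signals 6 fell, all 10 were negative and the median was −0.62; Gli1, a transcriptional target and effector of Hedgehog signalling, fell by 1.55, Shh by 0.65 and its receptor Ptch1 by 0.59 (log2).

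Among themselves, the members varied only partly together. Over the 12 E10.5 libraries, with each group's mean removed from log2 CPM (counts scaled to library size), the highest correlations between members were 0.73 for Meox2 with Myf5 and 0.70 for Meox1 with Tcf15. Next came Nkx3-2 with Meox2 at 0.69, Pax1 with Pax9 at 0.66, Nkx3-2 with Tcf15 at 0.65, Meox2 with Tcf15 at 0.64 and Myog with Scx at 0.62. The lowest was −0.49 for Pax1 with Meox2. The libraries share depth and dissection, and these values carry no p. Among 14391 genes, those most like Myog by the same measure were Abi1 (0.94), Strada (0.92), Nr5a1 (0.91), Col8a1 (0.90) and Dkk2 (0.89). Those most like Scx were led by Pank3 (0.92), those most like Pax1 by Dock1 (0.97) and Timp3 (0.96), those most like Meox1 by Kcmf1 (0.97), and those most like Pax3 by Gm28151 (0.93). Every member had a top value between 0.92 (Scx) and 0.98 (Meox2). Each was picked as the highest of 14391 genes over 12 libraries. Such values do not show shared regulation, which was not tested. In some single libraries most members lay on the same side of their group mean in FPKM. Below it were 9 of 10 in Hoxb13hd replicate 3 and in Del(i9-13):Hoxb13hd replicate 3. Above it were 9 of 10 in E10.5 Del(i9-13) replicate 3 and in E9.5 Del(i9-13) replicate 2. The share of all genes on that side was not counted. These counts therefore cannot tell a shift of the members from a shift of the whole library.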

How the data were processed

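RNA from headless embryos was sequenced from stranded TruSeq libraries, poly(A)-enriched at E9.5 and ribo-depleted at E10.5, per the labels' protocols. The submitters' processing notes name cutadapt 1.18, STAR 2.7.10a, Cufflinks 2.2.1 and mm10 (counting program, strand setting and annotation: not given in the sources used here). Raw read counts per gene (55141 genes) and FPKM from Cufflinks (55138 genes) were deposited by the authors. Counts were tested with edgeR 4.0.16 in R 4.3.3 (TMM scaling, filterByExpr with a minimum count of 10 and total of 15, robust quasi-likelihood test), with Benjamini-Hochberg adjustment over all genes tested and a threshold of 0.05. DESeq2 1.42.0, limma 3.58.1 on log2(FPKM + 0.1), other filters and leaving out libraries were alternatives. The procedure was tested on simulated data, and no power for the fold changes reported here was taken from that test. Named list genes are those that passed and otherwise, per list, the 2 with the smallest p, of which some are given. The members and lists were chosen with earlier results of these data known. Library totals were 19333138 to 35934843 counts, and 0 columns per sample were left out. Overlapping and antisense genes may share reads, since the strand setting is not known. A listed gene that is not named with its value is not reported here.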

Additional observations from a re-analysis of the deposited data

How the results depend on the processing

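The number of members called changed as follows. E9.5 Del(i9-13) against wild-type had 0 with edgeR and 1 with DESeq2. Hoxb13hd against wild-type had 1 with edgeR (Nkx3-2), 1 without a filter, which was Scx instead, 3 with DESeq2, 0 with limma on log2(FPKM + 0.1) without a filter, 0 when only the groups compared were fitted, and 0 to 2 when a library was left out: 0 without wild-type replicate 1 or 3 or any Hoxb13hd library, and 2, Myog and Scx, without wild-type replicate 2. Del(i9-13):Hoxb13hd against Hoxb13hd had 0 with edgeR, 2 without a filter, 2 with DESeq2, 1 with limma on log2(FPKM + 0.1), 1 with limma on log2(FPKM + 1) and 1 when only the groups compared were fitted. Both deletion genotypes against both without had 0 with edgeR, 1 without a filter, 2 with DESeq2, and 0 to 2 when a library was left out. Wild-type E10.5 against E9.5 had 6 with edgeR, 5 to 7 with limma, and 4 to 6 when a library was left out. The cause of these changes was not tested. No fold change printed for a single gene changed from a called value to the opposite sign.

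Replicate numbers were not used to pair the libraries, because the labels do not say that they mark a litter or day. Deviations of same-numbered libraries correlated at −0.000292 to 0.145 at E9.5 and −0.233 to 0.155 at E10.5. Differently numbered libraries of different groups gave −0.219 to 0.136 at E9.5 and −0.189 to 0.215 at E10.5. With so few libraries, these values cannot show whether a shared litter or day was present. With the replicate number as a block, Hoxb13hd against wild-type had 0 members called. For wild-type E10.5 against E9.5, a block within each stage gave 3 instead of 6. That fit set the stage contrast at replicate 1 of each stage, not at the mean of the replicates. Its 3 calls therefore do not show what pairing by number would change.

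Depth limits Scx and Nkx3-2 most, counted 12 to 74 and 41 to 132 times per library. The count of all genes called for Hoxb13hd against wild-type was 517, and leaving out a library gave 51 to 676, so a member's adjusted p moved with the other genes as well as with its own values. With 3 libraries a group, a miss of the threshold does not show that groups were alike.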
